A study of Mus musculus with 2 samples.

Results

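The miR-30 family is represented on the array by 10 probes, the 5p and 3p arms of miR-30a, miR-30b, miR-30c, miR-30d and miR-30e, out of 1900 miRNA probes. The members were chosen by name: 5 guide arms (the 5p strands) and 5 opposite arms (the 3p strands, with miR-30c-2-3p for miR-30c), each with 1 spot per array. Total RNA came from epididymal adipose tissue, the visceral fat pad beside the epididymis, of male C57BL/6J mice aged 8 weeks when feeding began. One group was fed a diet with 60% of its calories as fat and the other a normal diet with 5% fat, both for 8 weeks. Each diet has 1 array; the labels do not give the number of animals behind an array. No error across animals can be given, so the differences below compare these arrays.

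A miRNA precursor is a hairpin with a strand on each side of its loop; one strand usually guides the silencing complex to messenger RNAs, mainly through its seed, bases 2 to 8, while the other is mostly degraded. In cultured human adipose stromal cells miR-30a and miR-30d promote fat cell formation, and their target RUNX2 is a transcription factor of bone formation. In mouse cells miR-30b and miR-30c favour the thermogenic programme and target Nrip1, a corepressor of oxidative genes. miR-30c is also known to target the messenger RNA of MTTP, which loads lipid onto lipoproteins in liver cells.

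RefSeq sequences (GRCm38.p6) matched 6 of the 10 members. miR-30b-5p, miR-30b-3p, miR-30d-5p and miR-30d-3p had no sequence in this source. They are named only, and the seed counts below leave them out. The guide arms are shown first, 5′ to 3′ with the seed in capitals, because their common start is what defines the family.
mmu-miR-30a-5p: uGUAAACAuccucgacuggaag
mmu-miR-30e-5p: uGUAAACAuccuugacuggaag
mmu-miR-30c-5p: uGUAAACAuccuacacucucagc
mmu-miR-384-5p: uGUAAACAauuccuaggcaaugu
Counted from 1 at the 5′ end of miR-30a-5p, miR-30e-5p differs from it by C13U alone, and miR-30c-5p differs at 5 of the 22 positions compared. Among 1679 mature miRNAs with a sequence, 4 carry the seed GUAAACA, whose complementary site in a target reads UGUUUAC: these 3 members and miR-384-5p, a probe outside the family's name. Probes for strands that differ at 1 base can capture each other's RNA, so the values of miR-30a-5p and miR-30e-5p are not certain to be separate measurements.

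The opposite arms fall into seed groups of their own, shown because arms with almost the same letters can be compared.
mmu-miR-30a-3p: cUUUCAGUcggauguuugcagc
mmu-miR-30e-3p: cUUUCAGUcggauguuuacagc
mmu-miR-30c-2-3p: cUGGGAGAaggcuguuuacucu
mmu-miR-30c-1-3p: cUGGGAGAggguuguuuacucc
miR-30e-3p differs from miR-30a-3p by G18A, which leaves the seed untouched. miR-30c-1-3p, the opposite arm of the second miR-30c gene and not one of the 10 members, differs from miR-30c-2-3p by A9G, C12U and U22C, counted on miR-30c-2-3p. The seed UGGGAGA was also held by miR-6958-5p, a miRNA with no name in common with the family.

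Both arms of a hairpin come from 1 transcript, as the hairpins of Mir30a (chr1:23272269-23272339, plus strand) and Mir30e (chr4:120772606-120772697, minus strand) show, with the arms in capitals.
Mir30a: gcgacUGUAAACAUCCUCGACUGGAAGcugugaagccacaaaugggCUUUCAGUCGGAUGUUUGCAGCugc
Mir30e: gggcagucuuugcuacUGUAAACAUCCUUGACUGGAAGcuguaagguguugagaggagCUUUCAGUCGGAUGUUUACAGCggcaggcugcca
Mir30a lies 19361 bases from Mir30c-2 on chromosome 1. Mir30e lies 2983 bases from Mir30c-1 on chromosome 4, and both of these lie within Nfyc, the gene of a subunit of a CCAAT-binding transcription factor. miR-30c-5p is made from Mir30c-1 and from Mir30c-2 with the same sequence, so its probe reads the sum of both genes.

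Of 1900 miRNA probes, 1510 were detected on the high-fat array and 1370 on the normal-diet array, and 1339 on both. Blank spots averaged 69.2 on the high-fat array and 75.6 on the normal-diet array. A spot counted as detected above the blank mean plus 2 SD. Of the 10 family members, 9 were detected on both arrays, and miR-30d-3p on neither. Intensities below are background-corrected with an offset of 50 and quantile-normalized, so a value near 55 lies at the blank level. A difference is the high-fat minus the normal-diet value on the log2 scale. The only spread that can be measured is that of repeated control spots: 5 bright controls had 8 spots each, and from them the SD of the log2 difference of 1 spot between the arrays was 0.11 to 0.20. It was computed before scaling between the arrays, and it covers spot-to-spot error within an array and no variation between mice. Diet and array position on the slide cannot be told apart, nor, in bulk tissue, fewer cells of a type and less RNA per cell.

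The guide arms were bright on both arrays and lower on the high-fat array, each by more than the largest SD of the control spots, 0.20, under this processing. With spike-control scaling miR-30b-5p, at -0.17, lay inside the largest SD of the control spots, and miR-30e-5p was at -0.22. mmu-miR-30a-5p had a normalized intensity of 856 on high-fat diet, against 1504 on normal diet, a log2 difference of -0.81, or 56.9% of the normal-diet intensity. It had the lowest difference of the family under this processing; by plain subtraction it was at -0.86, with miR-30c-2-3p at -1.49 and miR-30a-3p at -1.04.
mmu-miR-30d-5p, paired with miR-30a in work on fat cell formation, stood at 797 on high-fat diet, against 1248 on normal diet (-0.65, or 63.9%). mmu-miR-30e-5p, the near-identical strand from the Nfyc gene, stood at 520 on high-fat diet, against 768 on normal diet (-0.56, or 67.6%). The high-fat intensity was the lower one for both. Of the members known for the thermogenic programme, mmu-miR-30c-5p stood at 1151 on high-fat diet, against 1534 on normal diet (-0.41). mmu-miR-30b-5p stood at 1052 on high-fat diet, against 1232 on normal diet (-0.23), which is close to the largest SD of the control spots.

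The order of the guide differences was miR-30a-5p, miR-30d-5p, miR-30e-5p, miR-30c-5p and miR-30b-5p, lowest first. Neighbours in it were 0.08 to 0.19 apart. A gap between single-spot differences varies with an SD of up to 0.28 by the control spots, so no neighbours differed beyond that spread. The ends, miR-30a-5p and miR-30b-5p, were 0.59 apart. miR-30c-5p and miR-30e-5p changed places in the authors' deposited values and with spike-control, 75th percentile, median, cyclic loess and no scaling. The ends were the same in the deposited values, 0.46 apart, and with cyclic loess, 0.43 apart.

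**Figure D1:**
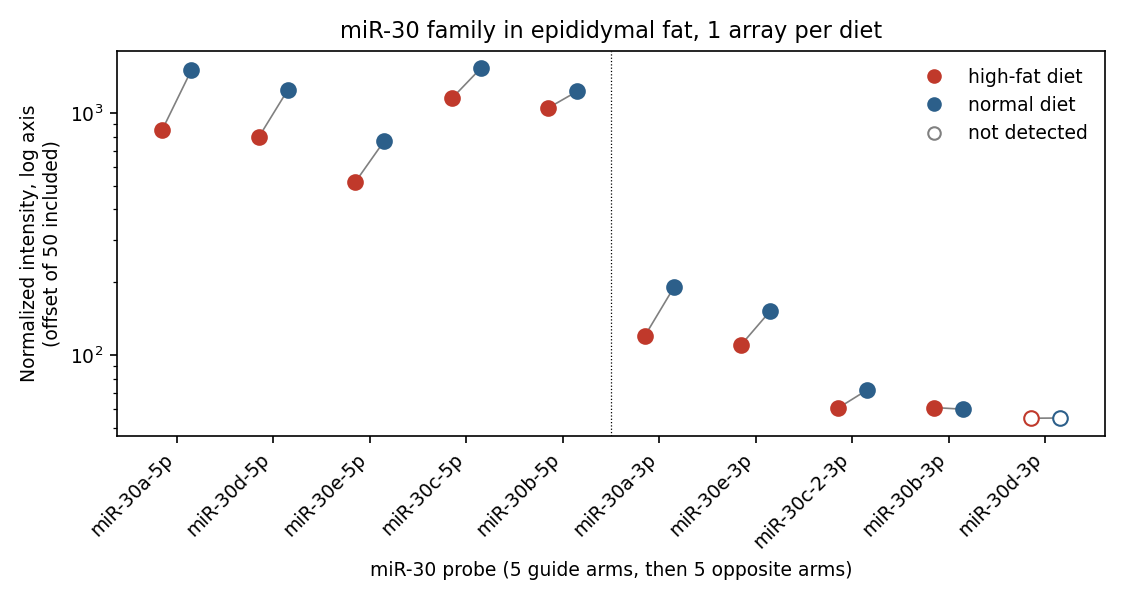
Normalized intensity (log axis) of each miR-30 probe on the high-fat array (red) and the normal-diet array (blue), with 1 point per array and no error bar, guide arms left of the dotted line; open circles were not detected. All 5 guide arms lie lower on the high-fat array, from miR-30a-5p at 856 on high-fat against 1504 on normal diet to miR-30b-5p at 1052 on high-fat against 1232 on normal diet, and miR-30d-3p lies at the blank level on both.

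The opposite arms that stood well above the blanks, miR-30a-3p and miR-30e-3p, were lower with high-fat diet, like their guides. mmu-miR-30a-3p had an intensity of 120 on high-fat diet, against 190.3 on normal diet (-0.66). mmu-miR-30e-3p, which shares all but 1 base with it, stood at 111 on high-fat diet, against 152 on normal diet (-0.46). Both differences were larger than the spread of control spots, although miR-30a-3p was at -0.22 and miR-30e-3p at -0.00359 with spike-control scaling.

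The remaining opposite arms lay near the detection limit, where the offset of 50 shrinks differences, so their signal above the blank mean is given first. mmu-miR-30c-2-3p had a net signal of 7.74 on high-fat diet, against 14.8 on normal diet. Its difference was 0.14 with spike-control scaling, which also raised undetected probes, such as miR-30d-3p to 0.32, because it was applied after the offset. It was -0.25 with the offset and quantile scaling, -1.49 by plain subtraction and -1.19 in the authors' deposited values. mmu-miR-30b-3p went the other way, with a net signal of 8.21 on high-fat diet, against 4.17 on normal diet. Its difference was 0.02 with the offset and 0.72 in the authors' deposited values, but -0.04 with 75th percentile scaling. mmu-miR-30d-3p had 1.21 on high-fat diet, against 0.309 on normal diet, below the detection limit on both arrays, so no fold is given.

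The arms of a hairpin did not separate in a stable way. The guide minus opposite gap was -0.15 for miR-30a and -0.10 for miR-30e, within the spread, and it was 0.18 and 0.18 by plain subtraction. For miR-30c-5p against miR-30c-2-3p the gap was -0.17, against 1.06 by plain subtraction. Only for miR-30b was the guide below its opposite arm under quantile scaling with either offset, under plain subtraction and in the deposited values, among the member pairs, with gaps of -0.25, -0.29, -0.47 and -1.49 in that order. The first of these also lay within the SD of up to 0.28 for a gap. They rest on net signals of 8.21 and 4.17 for miR-30b-3p. With the local background the order was reversed, with miR-30b-5p at 1.81 and miR-30b-3p at 0.04.

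Counted over the family, 8 of the 9 members detected on both arrays lay below their normal-diet value, where 64.4% of all 1339 miRNAs detected on both arrays did. The guide arms had a median difference of -0.56 and the detected opposite arms of -0.35, and the median over all 1339 miRNAs was -0.04. Of the 670 miRNAs with at least the median signal, 60.6% lay below 0, with a median of -0.06. This set reaches down to dim miRNAs such as miR-30f (101 on high-fat diet), where the offset shrinks differences. No share was counted among miRNAs as bright as the guide arms. Single miRNAs of such brightness went both ways, such as miR-103-3p (-0.72), let-7e-5p (-0.27) and miR-125b-5p (0.40). None of the 9 members was at least 2-fold lower or higher under this processing; 0.747% of all miRNAs were at least 2-fold lower and 1.27% at least 2-fold higher. In the authors' deposited values 8 of the 9 members also lay below their normal-diet value, where 49.7% of miRNAs did. At least 2-fold lower there were 4.63% of miRNAs and 4 of the 9 members: miR-30a-5p (-1.23), miR-30c-2-3p (-1.19), miR-30a-3p (-1.08) and miR-30d-5p (-1.07). miR-30c-5p (-0.99) lay just short of 2-fold there, followed by miR-30e-5p (-0.84), miR-30e-3p (-0.80) and miR-30b-5p (-0.77).

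**Figure D2:**
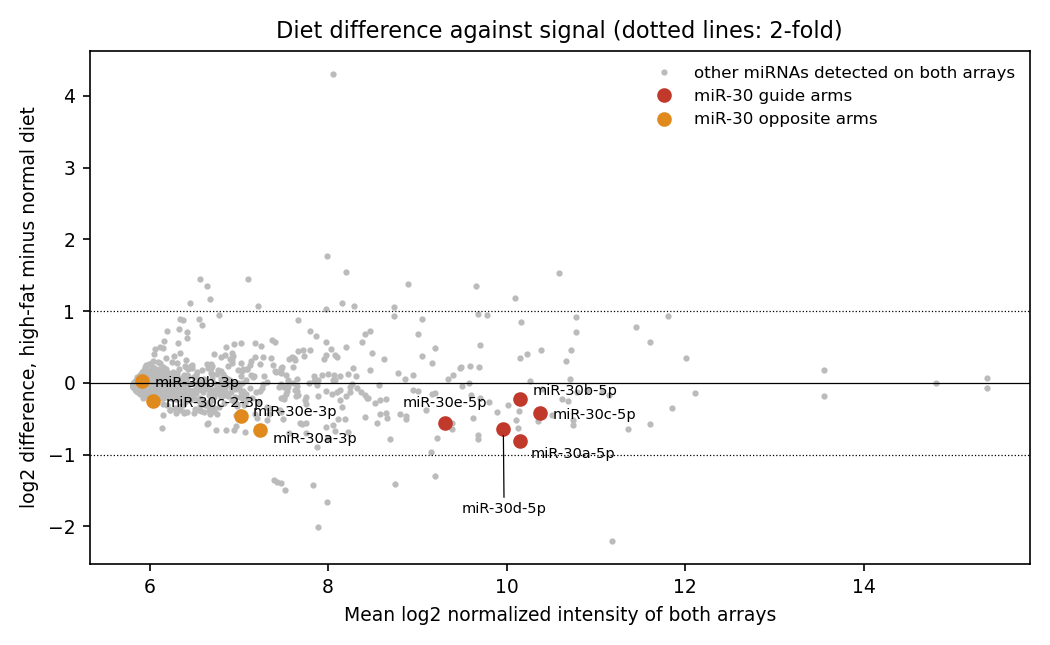
The log2 difference (high-fat minus normal diet) of each of the 1339 miRNAs detected on both arrays against its mean log2 intensity; grey points are other miRNAs, red points the miR-30 guide arms and orange points the detected opposite arms, and dotted lines mark 2-fold. The guide arms lie from -0.81 to -0.23, inside the 2-fold lines, and miR-30b-3p lies at 0.02.

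The direction of the guide arms held under each scaling tried, but not with the scanner's local background. The 5 bright controls, which include both spike controls, were also lower on the high-fat array, with net log2 differences of -0.46 to -0.26. The lowest, S-Probe28, was at -0.46 with the offset and no scaling, near miR-30b-5p (-0.49) and miR-30e-5p (-0.54) without scaling. Scaling to the spike controls, which stood at log2 differences of -0.31 and -0.33 in net signal, moved the median of all miRNAs to 0.35, and only 5.75% then lay below 0. Of the 9 members 7 did, among them the 5 guide arms, from -0.61 for miR-30a-5p to -0.17 for miR-30b-5p, with a median of -0.38, which is -0.73 relative to the median of all miRNAs. The opposite arms then had a median of 0.07. Plain subtraction moved the median of all miRNAs to -0.20, and relative to it the guide arms stood at -0.41 and the opposite arms at -0.72.

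**Figure D3:**
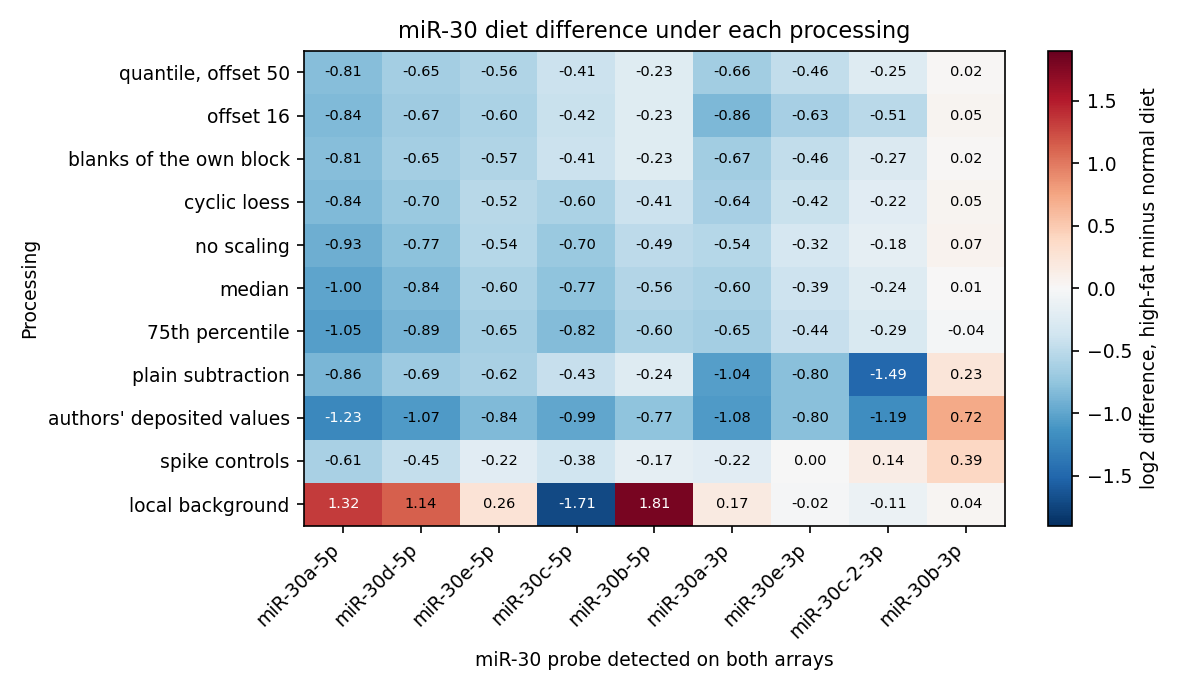
Each cell gives the log2 difference (high-fat minus normal diet) of a miR-30 probe detected on both arrays (columns) under a processing (rows); blue is lower and red higher on the high-fat array. The guide arms are below 0 in each row except the last, the local background, where miR-30c-5p alone of the guides is below 0, at -1.71.

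With the local background, the median intensity around each spot, 3 of the 9 members lay below their normal-diet value, where 52.7% of all miRNAs did, and 4 of the 5 guide arms were higher on the high-fat array: miR-30b-5p (1.81), miR-30a-5p (1.32), miR-30d-5p (1.14) and miR-30e-5p (0.26). For miR-30b-5p it read 856 beside a spot of 997 on the high-fat array, and 1652 beside a spot of 1399 on the normal-diet array, so that the subtraction left nothing on normal diet. For miR-30a-5p the local background made up 80.2% of the spot on the high-fat array and 98.3% on the normal-diet array.
miR-30d-5p showed the same order, with 42.3% on the high-fat array and 87.2% on the normal-diet array, while miR-30c-5p, the only guide lower under this setting, showed 91.5% on the high-fat array and 76.2% on the normal-diet array. Around miR-30b-3p and miR-30d-3p, both near or under the detection limit, the local background lay below the blank mean on both arrays. The medians of the spots themselves, before any subtraction or scaling, were lower on the high-fat array for all 5 guides. So were the blank mean (69.2 on the high-fat array, 75.6 on the normal-diet array) and the net signal of the 5 bright controls. The unscaled spot medians are thus not particular to miR-30. With the blanks of each spot's own block as background, a setting added after the data were seen, the guide arms had a median of -0.57.

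**Figure D4:**
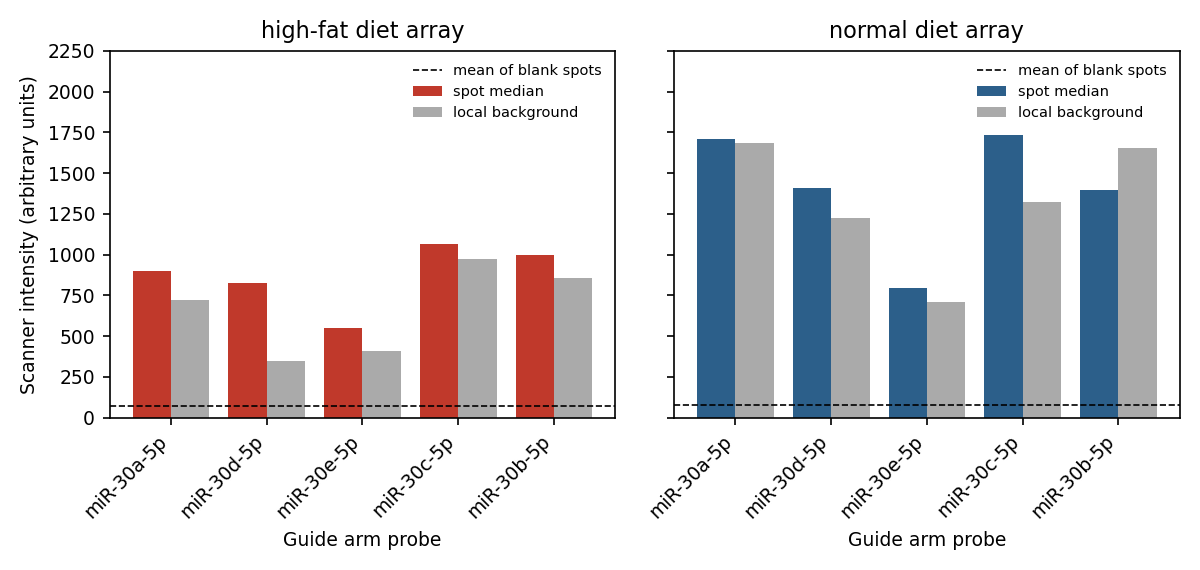
Scanner intensity of the spot (coloured bars) and of its local background (grey bars) for the 5 guide arms on the high-fat array (left) and the normal-diet array (right), with the mean of the blank spots as a dashed line. The local background lies above the blank mean around each guide arm, and for miR-30b-5p on normal diet it exceeds the spot, with 1652 for the background and 1399 for the spot.

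Among relatives of the family, miR-30f had an intensity of 101 on high-fat diet, against 154 on normal diet (-0.60). Its gene lies on the strand opposite to Mir30e, so that miR-30f and miR-30e-3p overlap by 19 bases as complements, and its sequence starts with the family's letters shifted by 1 base.
mmu-miR-30f: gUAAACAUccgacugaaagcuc
It shares a run of 10 bases with miR-30a-5p, miR-30c-5p and miR-30e-5p, and how much of its signal came from these strands was not tested. miR-30c-1-3p had a net signal of 8.28 on high-fat diet, against 4.45 on normal diet (0.02 with the offset, 0.64 in the authors' deposited values, -0.05 with 75th percentile scaling), in net signal the direction opposite to that of its near-copy miR-30c-2-3p. miR-384-5p, which carries the guide seed outside the family's name, was detected on neither array. miR-6958-5p, which has the seed of miR-30c-2-3p, stood at 92.6 on high-fat diet, against 99.2 on normal diet (-0.10).

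The 5 miRNAs nearest to the guide arms in mean signal and difference, by distance on those values over the 2 arrays, were miR-145a-5p, miR-27a-3p, miR-22-3p, miR-23b-3p and miR-29b-3p. miR-145a-5p, a miRNA of smooth muscle and stromal cells, stood at 900 on high-fat diet, against 1394 on normal diet (-0.63). miR-27a-3p, which restrains fat cell formation, stood at 920 on high-fat diet, against 1311 on normal diet (-0.51). Differences of the other three ran from -0.53 to -0.30. With the local background miR-145a-5p was at 3.48 and miR-27a-3p at -2.64.

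The other miRNAs linked to adipocyte differentiation had a median difference close to that of the miR-30 guides. Of 21 in the list, 20 were detected on both arrays, 15 lay below their normal-diet value, where 64.4% of all miRNAs did, and the median was -0.55. The lowest were miR-378a-3p (-1.66), encoded in the metabolic coactivator gene Ppargc1b, miR-193b-3p (-1.42) and miR-365-3p (-1.30), which were past 2-fold. Over all 1339 miRNAs, 0.747% were at least 2-fold lower and 1.27% at least 2-fold higher. miR-107-3p (-0.78) and miR-103-3p (-0.72), linked to insulin signalling, lay beside miR-30a-5p. miR-335-5p, from the Mest gene, was past 2-fold in the other direction (1.76), and miR-17-5p (0.57) and miR-20a-5p (0.47) were also higher.
The anti-adipogenic list had 13 of 15 members detected on both arrays and a median of -0.39. Of these, 11 lay below their normal-diet value, where 64.4% of all miRNAs did. The list held miR-193a-3p (-1.41), which was past 2-fold, miR-130a-3p (-0.97), which targets Pparg, and miR-27b-3p (-0.56). Higher on the high-fat array were miR-138-5p (0.35) and miR-31-5p (0.12), at 1.73 and 1.86 in the authors' deposited values. The median differences of these lists and of the miR-30 guides spanned 0.17. With spike-control scaling the adipocyte differentiation list had a median of -0.18, with 12 of 20 below 0. The anti-adipogenic list then had a median of -0.05, with 7 of 13 below 0, where 5.75% of all miRNAs lay below 0. That share is set in part by the offset, because the scaling also raised probes at the blank level. With the local background these medians were -0.13 and -0.00118.

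**Figure D5:**
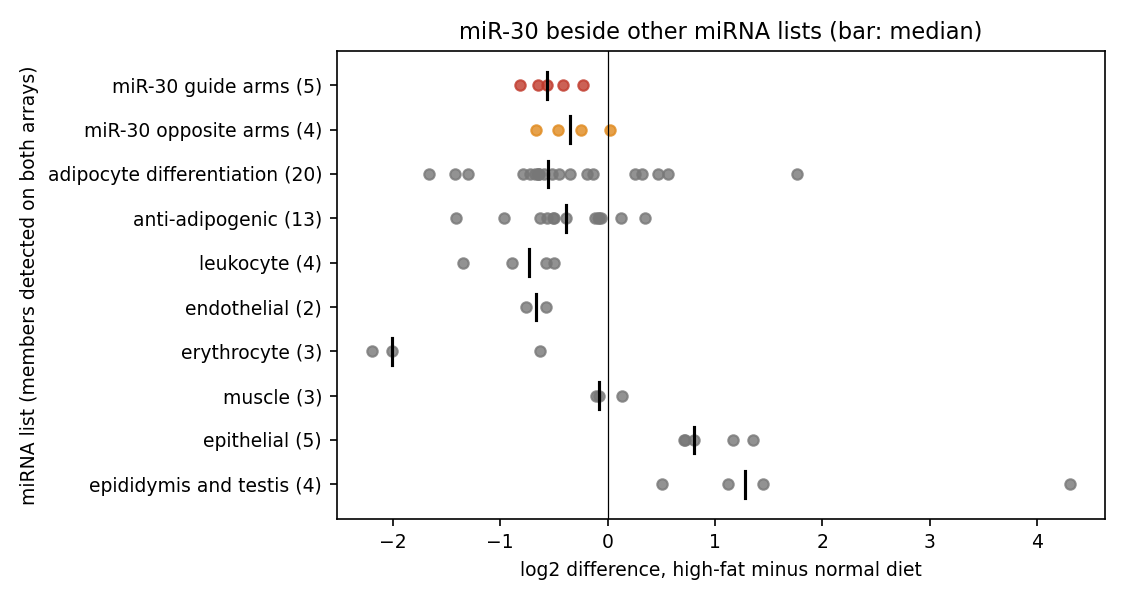
The log2 difference (high-fat minus normal diet) of each miRNA detected on both arrays, by list, with the list's median as a bar and the number of miRNAs in brackets. The miR-30 guides (median -0.56), the adipocyte differentiation list (-0.55) and the anti-adipogenic list (-0.39) have medians below 0. The leukocyte, endothelial (median -0.67) and erythrocyte markers lie below 0, and the epithelial and epididymis markers above 0.

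Markers of other cells also differed between the arrays. Of 8 epididymis and testis markers, 4 were detected only with high-fat diet and 4 on both arrays. Of all 1900 miRNA probes, 171 were detected only on the high-fat array and 31 only on the normal-diet array. Summed over the 4 epididymis and testis markers on both arrays, the net signal was 1234 on high-fat diet, against 14.0 on normal diet. This is the signal above the blank mean, not scaled between the arrays. For 5 of 6 epithelial markers this net signal was 404 on high-fat diet, against 46.5 on normal diet. The 3 erythrocyte markers summed to a net signal of 1050 on high-fat diet, against 5534 on normal diet, the 4 leukocyte markers to 416 on high-fat diet, against 794 on normal diet, and the 2 endothelial markers to 2670 on high-fat diet, against 4318 on normal diet. The 3 muscle markers summed to 49.7 on high-fat diet, against 37.3 on normal diet. The rise lay in miR-1a-3p, with 26.0 on high-fat diet, against 13.4 on normal diet. miR-133a-3p had 21.0 on high-fat diet and 19.9 on normal diet, and miR-206-3p 2.65 and 3.98. Their median difference after normalization was -0.08. The part of these cells in the miR-30 differences was not tested; miR-30 strands are made in many cell types.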

How the data were processed

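Total RNA of epididymal fat was labelled with Cy5 and hybridised in 1 colour to 3D-Gene arrays, 1 per diet, per the labels' protocols. The scanner files hold the median intensity of each spot and of its surroundings, merged by the authors from several scanner gains, per the file headers. The authors' deposited table lists processed intensity values, which were found to be spot medians less the trimmed blank mean, multiplied by 1 factor per array (1.556 for high-fat diet, 1.858 for normal diet; largest relative deviation 4.03e-05). It lists a miRNA exactly where the spot exceeded the detection limit used here; its scale is linear and its median was 25 on both arrays. Neither labels nor headers name the scanner software.

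Spot medians were corrected with limma 3.58.1 (normexp, offset 50) in R 4.3.3, with the mean of 896 blank spots (5% trimmed at each end) as background, then quantile-normalized over 1900 miRNA probes and put on the log2 scale. Detection meant a spot above the blank mean plus 2 SD. The steps were tested on simulated data, in which only bright probes were changed, by folds of 2 or more. Smaller changes, and changes of dim probes, were not simulated, so the miR-30 differences under this processing lie outside that test. With 1 array per diet no test was run, and a fold of 2 counted as called. The number of arrays limits the precision. Named miRNAs were the 10 members, 3 relatives by name or seed, the 5 miRNAs nearest to the guide arms in signal and difference, and members of fixed lists past 2-fold with at most 4 more per list. The members, the lists, the blank background and the alternatives were chosen with earlier results of these data known. Sequences come from RefSeq (GRCm38.p6).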

Additional observations from a re-analysis of the deposited data

How the results depend on the processing

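The median of the guide arms was -0.56 and of the opposite arms -0.35, with 8 of 9 members lower. With the local background these became 1.14, 0.0111 and 3 members lower; miR-30a-5p (1.32), miR-30b-5p (1.81), miR-30d-5p (1.14), miR-30e-5p (0.26) and miR-30a-3p (0.17) turned sign, and around each of these the local background made up a larger share of the spot on normal diet. The guide median was -0.82 with 75th percentile scaling, -0.99 in the authors' deposited values and -0.77 with median scaling. The opposite-arm median was -0.92 by plain subtraction, -0.57 with an offset of 16 and -0.94 in the authors' deposited values. It was -0.56 without members under the median signal. With spike-control scaling it was 0.0698, and miR-30c-2-3p was at 0.14. That scaling was applied after the offset and raised undetected probes too, such as miR-30d-3p to 0.32. The sign of dim arms under it thus depends in part on the offset. Cyclic loess, no scaling and the own block's blanks moved neither median by more than the largest SD of control spots, 0.20; a detection limit of 3 SD changes no difference. Error between animals cannot be measured with 1 array per diet, and miR-30c-2-3p and miR-30b-3p rest on net signals of under 15 units. No paired analysis was possible because each diet has 1 array.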
